A study of Mus musculus with 6 samples.

Results

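The genes described here encode the translation initiation factors (eIFs) and translation elongation factors (eEFs) of the mouse. They were taken by name: gene symbols that begin with Eif1 to Eif6, Eef1 or Eef2, without the eIF2 kinases (Eif2ak1 to Eif2ak4), and with a deposited log2 value of about the log2 of 10 or more in 3 or more of the 6 libraries. Of 61 symbols that matched by name, 57 passed that minimum. They are part of 15059 genes that passed it and were tested, out of 47593 symbols with a value. Primary hippocampal neurons of WT mice were exposed at day 10 of culture to 6 µg/mL of microglial apoE particles (3 libraries) or to 6 µg/mL of astrocytic apoE particles (3 libraries), in both cases for 24 h, and total RNA was then sequenced on a DNBSEQ platform. Apolipoprotein E (apoE) is a lipid carrier that glia secrete as particles, and the series asked whether particles from microglia affect neuronal senescence and synapses. Both groups received particles, no untreated neurons enter the comparison, and every direction is microglial against astrocytic apoE. The labels leave unsaid whether a group's 3 libraries are separate cultures or animals. The p-values weigh each difference against the spread between libraries within the groups, and that spread may be only technical.

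Protein synthesis starts when initiation factors bring the initiator tRNA and the small ribosomal subunit to the capped end of an mRNA, search for the start codon and let the large subunit join. Elongation factors then deliver aminoacyl-tRNAs and move the ribosome along, and in neurons these steps are under close control because synapses translate mRNAs locally. Many mRNAs of the translation machinery begin with a run of pyrimidines at the very start of the transcript, through which the kinase mTOR controls their translation.

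Promoter sequences were in RefSeq (GRCm38.p6) for 45 of the 57 genes, and those that hold such a pyrimidine run are shown because it is the sequence feature best known for this gene family. A run was counted when at least 6 unbroken C or T letters on the coding strand began within 5 bases of the annotated start. Runs farther from that start were not counted, so a gene without a counted run may still carry one where its transcripts begin. It was found in 6 of the 45 promoters (13.3%), in 1223 of 10796 tested genes with an entry (11.3%) and in 12.1% of 27025 promoters in the table. The 60-base windows below run 5′ to 3′ from 40 bases before the start to 20 bases after it, with the run in capitals. The upper 3 genes were higher with microglial apoE and the lower 3 passed no threshold.
Eef1a1: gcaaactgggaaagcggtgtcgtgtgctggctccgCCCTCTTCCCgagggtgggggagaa
Eif3f: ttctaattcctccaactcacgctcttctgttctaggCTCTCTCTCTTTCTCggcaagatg
Eif3l: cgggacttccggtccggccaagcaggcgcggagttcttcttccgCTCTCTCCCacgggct
Eif2s3x: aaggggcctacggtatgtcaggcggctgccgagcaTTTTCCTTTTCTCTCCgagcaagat
Eif2b2: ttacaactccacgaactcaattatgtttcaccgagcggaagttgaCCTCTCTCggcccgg
Eif4g1: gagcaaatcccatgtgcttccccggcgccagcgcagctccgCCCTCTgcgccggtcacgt

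The windows lie at chr9:78481705-78481764 on the minus strand (Eef1a1), chr7:108934375-108934434 on the plus strand (Eif3f) and chr15:79075183-79075242 on the plus strand (Eif3l). Those of the genes that passed no threshold lie at chrX:94212632-94212691 on the minus strand (Eif2s3x), chr12:85219441-85219500 on the plus strand (Eif2b2) and chr16:20672687-20672746 on the plus strand (Eif4g1). Of the genes called higher, 3 of 14 with an entry held a run, against 3 of the 31 others. The longest run, 16 bases, belonged to Eif2s3x.

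The palindromic E-box CACGTG, a site that Myc, TFEB and related factors can bind, was searched from 250 bases before to 50 bases after the start. It was present in 10 of the 45 promoters (22.2%), in 1083 of the 10796 tested genes with an entry (10.0%) and in 7.24% of all 27025 promoters. It was held by 3 of the 14 genes called higher (Eif3f, Eif3k and Eif4h) and by 7 of the 31 others. Eif5a2 and Eif4g1 held it at 2 places each. The 30-base windows of the called genes are shown with the E-box in capitals, since they include genes that moved in opposite directions.
Eif3f: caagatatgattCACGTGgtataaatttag
Eif3k: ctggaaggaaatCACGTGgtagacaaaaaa
Eif4h: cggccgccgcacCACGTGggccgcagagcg
Eif5a2: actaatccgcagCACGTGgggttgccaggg
Eif5a2: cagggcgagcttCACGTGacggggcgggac

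They lie at chr7:108934335-108934364 (plus strand, Eif3f), chr7:28981915-28981944 (minus strand, Eif3k), chr5:134639488-134639517 (minus strand, Eif4h), and chr3:28781123-28781152 and chr3:28781148-28781177 (plus strand, Eif5a2). The amino acid response element TGATGNAAT, searched on both strands, was in none of the 45 promoters and in 47 of the 10796 tested genes with an entry (0.435%). These matches describe letters in the windows and say nothing of whether a factor bound there.

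All expression values below are on the log2 scale the authors deposited, a level per gene and library that is not divided by transcript length. A difference between groups is a log2 fold change, microglial minus astrocytic apoE, so a positive one means higher with microglial apoE. A gene was called when its Benjamini-Hochberg adjusted p in limma, taken over all 15059 genes tested, was under 0.05. In simulated data this threshold recovered 20% of log2 differences of 0.1 and 84% of those of 0.2. A gene that was not called may therefore still differ by about 0.1. The depth of the libraries is unknown, because the values are transformed and not read counts. The values behave like a regularized logarithm, which pulls weakly expressed genes towards their own mean, so folds of weak genes and SEs may be understated. The SE of the fold change was 0.024 to 0.062 among the 57 genes, with a median of 0.028, against a median of 0.029 over all genes tested.

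More translation factor genes were higher than lower with microglial apoE, and the differences were small. Of the 57 genes, 19 were higher (33.3%) and 3 were lower (5.26%), while over all genes tested 13% were higher and 11.8% lower. The 19 were Eif4ebp1, Eif6, Eif3f, Eif1, Eif3c, Eef1g, Eif1ad, Eif4a3, Eif3g, Eif3i, Eif3l, Eif3b, Eif4h, Eif3d, Eif3k, Eef1a1, Eef1d, Eef1b2 and Eif5b, and the 3 were Eif5a2, Eif3j2 and Eif4b. In either direction 38.6% of the factor genes were called, against 24.8% of all genes. The median log2 fold change was 0.047 over the 57 genes and -0.00057 over all genes tested. A value above 0 was seen in 39 of the 57 genes (68.4%), against 49.6% of all genes.

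The largest difference was the 1.29-fold excess of Eif4ebp1, and the other 18 higher genes lay between 1.06-fold and 1.18-fold. Without any model, all 3 microglial apoE libraries lay above all 3 astrocytic ones for 26 of the 57 genes (45.6%), against 20.1% of all genes tested. All 3 lay below for 5 of the 57, namely Eif5a2, Eif4b, Eif1a, Eif1ax and Eif5 (8.77%), against 18.8% of all genes. The split between higher and lower calls moved with the scaling of the libraries. Centring each library on its median gave 16 higher and 5 lower factor genes, and 1479 higher and 2767 lower genes in all. Setting equal sums of the unlogged values gave 23 higher and 1 lower among the factor genes and 2516 and 1318 among all genes.

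**Figure D1:**
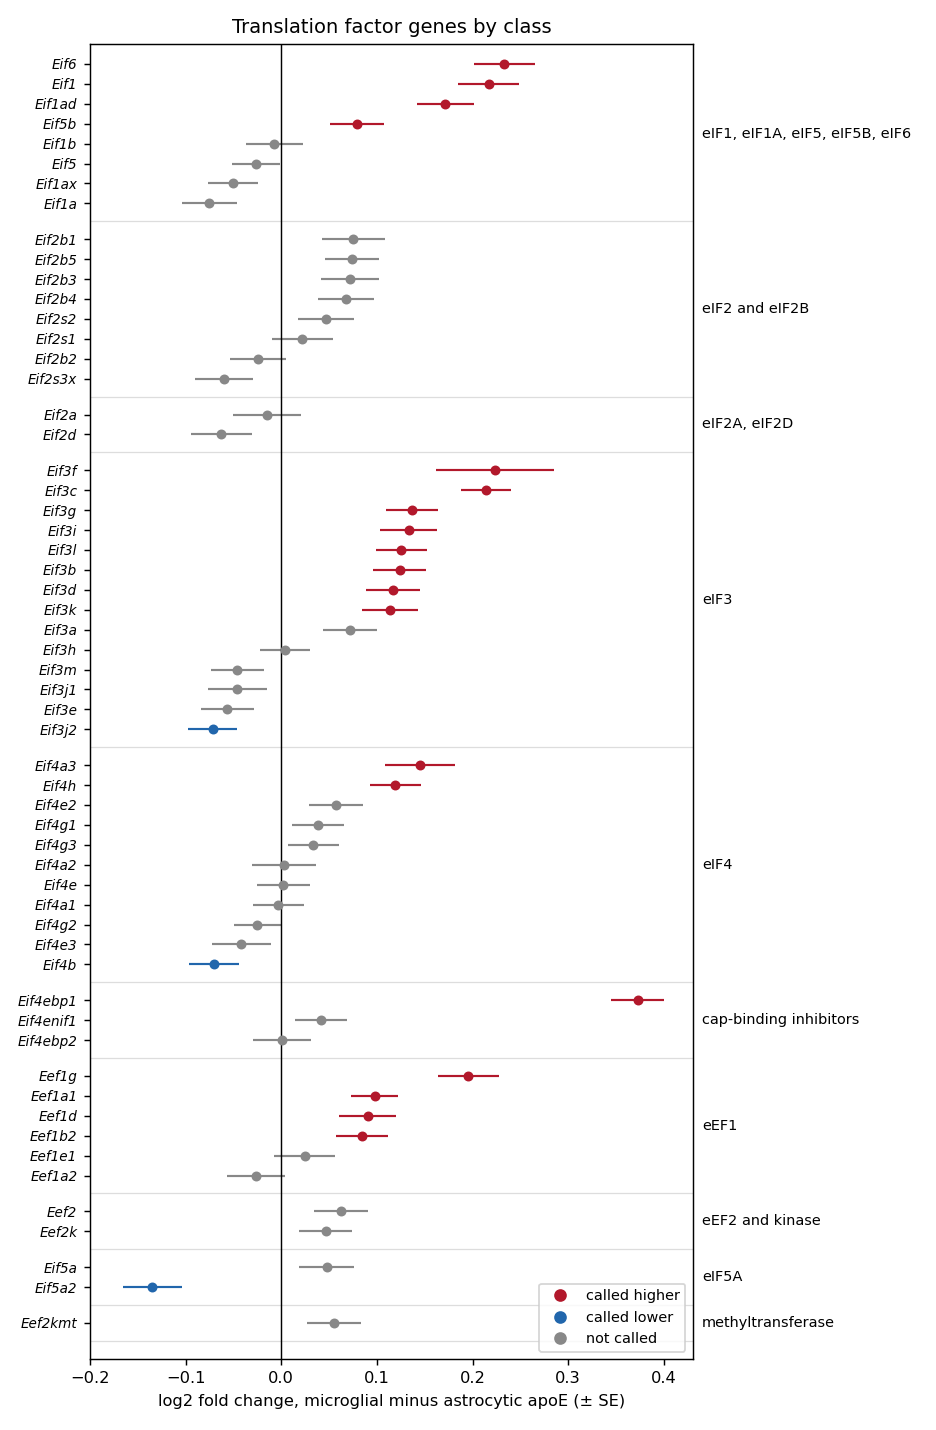
Log2 fold change (x axis, microglial minus astrocytic apoE, n = 3 libraries each) of the 57 translation factor genes, grouped by function from top to bottom; points are limma estimates and bars their SE. Eif4ebp1 stands farthest to the right at 0.37, 8 of the 14 eIF3 genes are called higher, and no eIF2 or eIF2B gene is called.

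**Figure D2:**
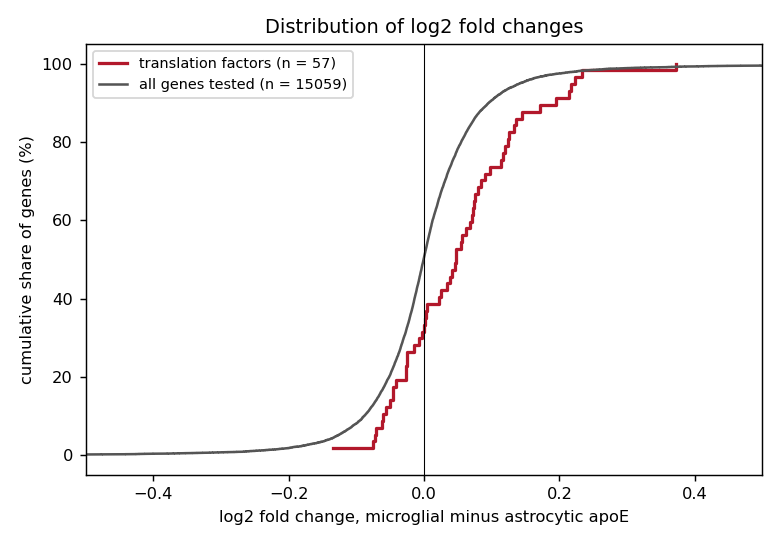
Cumulative share of genes (y axis, percent) by log2 fold change (x axis, microglial minus astrocytic apoE) for the 57 translation factor genes and for all 15059 genes tested. Over the middle of the range the step curve of the factor genes runs to the right of the curve of all genes, with medians of 0.047 and -0.00057, and it ends at 0.37, while 78 genes above 0.5 and 29 below -0.5 lie outside the axis.

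The 57 genes took 1.74% to 1.77% of the summed unlogged values in the microglial apoE libraries and 1.63% to 1.68% in the astrocytic ones. Eef1a1 alone made up 24.0% to 24.3% of that share in the microglial libraries and 23.3% to 23.8% in the astrocytic ones. To compare levels between genes, values were put per kb by subtracting the log2 of the merged exon length in kb, which covers all annotated isoforms and so understates genes with long, little-used exons. On that scale Eef1a1, which carries aminoacyl-tRNA to the ribosome, was the highest at 14.90 with microglial and 14.81 with astrocytic apoE. Eef2, which drives translocation, came next at 13.20 with microglial and 13.14 with astrocytic apoE, followed by Eif1, which guards start codon choice, at 12.27 with microglial and 12.05 with astrocytic apoE. The lowest were Eef2kmt, Eif4e3 and Eif3j2, at 5.83, 5.13 and 4.77 with microglial apoE and 5.77, 5.17 and 4.84 with astrocytic apoE. The minimum divided the symbols cleanly: the nearest symbols inside were Eif3j2, at 6.01 to 6.13, and Eif4e3, at 6.42 to 6.56. Outside it stood Eif4ebp3, at 0.98 to 1.01, and Eif2c5, Eif2s3y and Eif4e1b, each listed at 0 in all 6 libraries.

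The factors of start codon choice and subunit joining (eIF1, eIF1A, eIF5, eIF5B and eIF6) had 4 of 8 genes higher and none lower. Counts for this class and those below stand beside 13% higher and 11.8% lower over all genes tested. Eif6 (chr2:155819832-155826925, GRCm38) encodes a factor that binds the large subunit and keeps it from joining the small one too early. Eif6 had values of 10.83, 10.92 and 10.78 with microglial apoE, against 10.59, 10.59 and 10.64 with astrocytic apoE. The groups did not overlap, and the difference was 0.23 ± 0.032 (SE), or 1.18-fold (limma adjusted p = 4.2e-06). Eif1 (chr11:100319885-100322096) had 13.29, 13.41 and 13.32 with microglial apoE, against 13.06, 13.13 and 13.18 with astrocytic apoE. All microglial libraries were again above all astrocytic ones, by 0.22 ± 0.032 (1.16-fold, limma adjusted p = 2.2e-05). Eif1 is matched by 13 other annotated genes at 95% identity or more, 8 of them with a value other than 0 in the files, so its reads may have been divided among them.

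Eif1ad (chr19:5366741-5371526), named for its eIF1A-like domain, had 9.75, 9.78 and 9.71 with microglial apoE, against 9.55, 9.57 and 9.60 with astrocytic apoE. The groups were separate, with a difference of 0.17 ± 0.030 (limma adjusted p = 0.00011), and the gene overlaps Banf1, which also has a value. Eif5b, the GTPase of subunit joining, was higher by 0.079 ± 0.028 (limma adjusted p = 0.041), and it overlaps Rev1. That call was lost under 8 of 14 alternative settings (adjusted p 0.067 to 0.13), among them the removal of astrocytic replicate 1 or 2 or of microglial replicate 1 or 2. Eif5, which triggers GTP hydrolysis by eIF2, had 12.87, 12.89 and 12.89 with microglial apoE, against 12.91, 12.92 and 12.89 with astrocytic apoE. Its groups did not overlap, though their nearest libraries were equal to 2 decimals, with a difference of -0.026 ± 0.025 that was not called (limma adjusted p = 0.48). The paralogs Eif1b (-0.0071), Eif1ax (-0.051) and Eif1a (-0.075) were not called either, so within this group the called genes did not include the eIF1A genes themselves. Eif1a came nearest, with limma adjusted p = 0.057. It passed as lower under 3 of the 14 alternatives, and Eif1ax under 1 (median centring).

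No gene of eIF2, which carries the initiator tRNA, or of eIF2B, its nucleotide exchange factor, was called in either direction (0 of 8). Of all genes tested, 24.8% were called. Eif2s1, the alpha subunit whose phosphorylation is the core of the integrated stress response, had 10.64, 10.71 and 10.67 with microglial apoE, against 10.68, 10.69 and 10.58 with astrocytic apoE. Eif2s2, the beta subunit, had 12.54, 12.58 and 12.56 with microglial apoE, against 12.55, 12.54 and 12.44 with astrocytic apoE. Eif2s3x, the X-linked gamma subunit, had 11.64, 11.54 and 11.62 with microglial apoE, against 11.70, 11.65 and 11.62 with astrocytic apoE. The groups overlapped for all 3 subunits, with differences of 0.022 ± 0.032, 0.047 ± 0.029 and -0.060 ± 0.030 and limma adjusted p of 0.66, 0.26 and 0.15. Eif2s2 passed under 1 of the 14 alternatives, the removal of a trend over length and GC content (limma adjusted p = 0.0084).

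Eif2s3y, the Y-linked gamma subunit, was listed at 0 in all 6 libraries. Of 180 protein-coding symbols of the Y chromosome in the files, 179 were at exactly 0 in every library, Ddx3y, Uty and Kdm5d among them. Xist, the RNA of the inactive X chromosome, ranged between 13.70 and 13.85 in the microglial libraries and between 13.71 and 13.88 in the astrocytic ones. The listing of Eif2s3y at 0 was thus shared with nearly all Y-linked genes, and its cause was not tested.

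The 5 eIF2B subunit genes had a median difference of 0.071, and 4 of them were above 0 without passing the test. Eif2b5, the catalytic epsilon subunit, had 10.42, 10.42 and 10.44 with microglial apoE, against 10.33, 10.35 and 10.38 with astrocytic apoE. Its groups did not overlap, and at 0.074 ± 0.028 it was the uncalled factor gene nearest the threshold (limma adjusted p = 0.054). Eif2b1, Eif2b3 and Eif2b4 had differences of 0.075, 0.071 and 0.067 with limma adjusted p of 0.10, 0.087 and 0.096, and Eif2b2 had -0.024. The absence of eIF2B calls depended on the setting. Eif2b5 passed as higher under 4 of the 14 alternatives, Eif2b3 under 2 and Eif2b4 under 1, and all of these passed with equal sums. The alternative initiator tRNA factors Eif2a (-0.015) and Eif2d (-0.063) were not called.

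The eIF3 complex, the scaffold that holds the small subunit and recruits mRNA, was the largest class and held the most calls. Of its 14 genes 8 were higher and 1 was lower, with a median of 0.12. The share called higher was larger in eEF1 (4 of 6). Eif3f (chr7:108934417-108942951), a subunit of the outer part of the complex, had 12.13, 12.22 and 12.14 with microglial apoE, against 11.83, 11.92 and 12.07 with astrocytic apoE. The groups did not overlap, but the astrocytic libraries were spread more widely (SD 0.12) than the microglial ones (SD 0.050). Its difference of 0.22 ± 0.062 had limma adjusted p = 0.041, and the call was lost under 6 of 14 alternative settings. The losses came with any microglial replicate left out (adjusted p 0.061, 0.19 and 0.065 without replicates 1, 2 and 3), without astrocytic replicate 2 (0.091), with no filter on low values (0.064) and after removal of a trend over length and GC content (0.093).

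Eif3c (chr7:126546455-126566411), a large core subunit, had 13.52, 13.54 and 13.53 with microglial apoE, against 13.28, 13.32 and 13.35 with astrocytic apoE. The microglial values lay close together (SD 0.0092, against 0.038 for the astrocytic ones) and above every astrocytic value, with a difference of 0.21 ± 0.026 (1.16-fold, limma adjusted p = 7.9e-07). Eif3a, the largest core subunit, had 12.26, 12.17 and 12.26 with microglial apoE, against 12.18, 12.15 and 12.16 with astrocytic apoE. Its microglial replicate 2 fell among the astrocytic libraries, and the difference of 0.072 ± 0.028 was not called (limma adjusted p = 0.065). Without that replicate it passed, as it did with equal sums and after removal of the length and GC trend.

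Within the complex, the core subunits a, b and c with their partners g and i had 4 of 5 genes higher, and the outer subunits e, f, h, k, l and m had 3 of 6. Eif3g (0.14), Eif3i (0.13), Eif3l (0.13), Eif3b (0.12) and Eif3k (0.11) were higher with limma adjusted p of 0.00055 to 0.0055. Eif3d, a subunit that can bind the cap itself, was higher by 0.12 ± 0.028 (limma adjusted p = 0.0030). Eif3h (0.0040), Eif3m (-0.046) and Eif3e (-0.057) were not called. The loosely bound subunit j is encoded by a pair of near-identical genes: Eif3j2 was lower by 0.072 ± 0.026 (limma adjusted p = 0.043), with overlapping groups, and Eif3j1 had -0.046. The Eif3j2 call was lost under 8 of 14 alternative settings, among them the removal of any library except astrocytic replicate 3 (adjusted p 0.066 to 0.21) and of the length and GC trend (-0.042), and reads of the pair cannot be assigned with certainty. Per kb, the 12 subunits other than j covered a range of 3.47 to 3.52 log2 units within each microglial library and 3.54 to 3.61 within each astrocytic one. On this scale Eif3d was the lowest in all 6 libraries, while the highest was Eif3c in the 3 microglial libraries and Eif3h in the 3 astrocytic ones. The microglial means of Eif3c and Eif3h were close, at 11.72 and 11.69. The range and the order depend on the merged exon lengths, 4968 bases for Eif3d, 3511 for Eif3c and 1612 for Eif3h. Their longest coding transcripts have 1899, 3383 and 1295 bases, so other lengths may change the order.

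**Figure D3:**
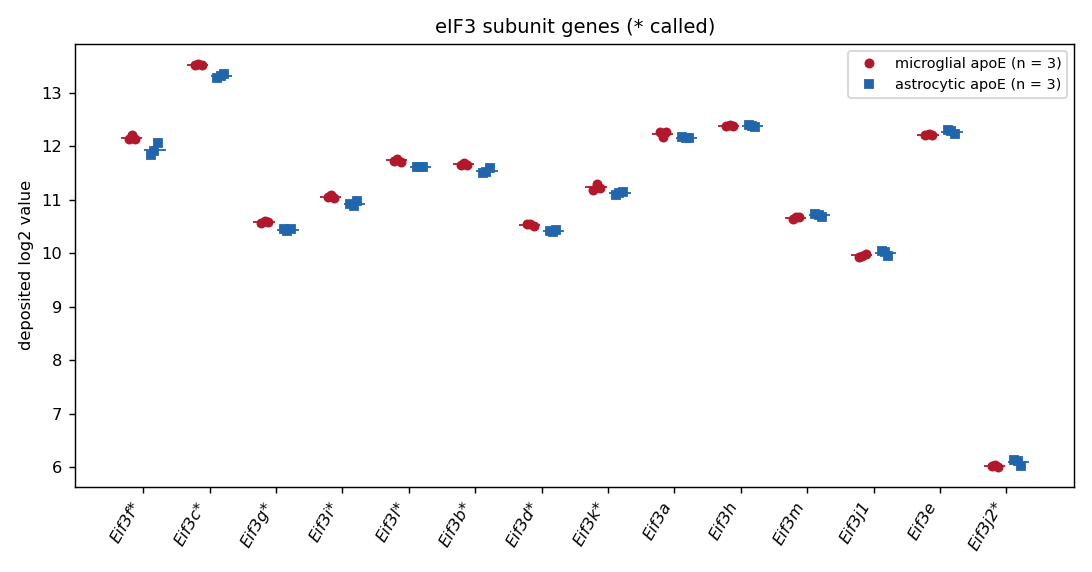
Deposited log2 values (y axis) of the 14 eIF3 subunit genes (x axis) in the 3 microglial apoE libraries (circles, left of each pair) and the 3 astrocytic apoE libraries (squares), with lines at the group means; asterisks mark called genes. Differences between groups are small beside the differences between subunits, and Eif3c shows the clearest gap.

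The eIF4 factors, which bind the cap, unwind the leader and bridge to eIF3, had 2 of 11 genes higher and 1 lower, with a median of 0.0024. Of all genes tested, 13% were higher and 11.8% lower. Eif4e, the cap-binding protein, had 11.80, 11.82 and 11.78 with microglial apoE, against 11.81, 11.83 and 11.76 with astrocytic apoE. Eif4g1, the main scaffold, had 12.94, 12.87 and 12.93 with microglial apoE, against 12.85, 12.87 and 12.91 with astrocytic apoE. The groups overlapped for both, with differences of 0.0020 ± 0.027 and 0.038 ± 0.027 (limma adjusted p = 0.97 and 0.33).

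Of the eIF4A helicases, Eif4a1 had 12.89, 12.96 and 12.90 with microglial apoE, against 12.94, 12.92 and 12.90 with astrocytic apoE. Eif4a2, the paralog abundant in neurons, had 12.73, 12.76 and 12.74 with microglial apoE, against 12.81, 12.77 and 12.64 with astrocytic apoE. Both overlapped between groups, with differences of -0.0030 ± 0.027 and 0.0024 ± 0.034 (limma adjusted p = 0.95 and 0.97). Eif4a3 (chr11:119288363-119300089), a core component of the exon junction complex rather than of initiation, had 10.30, 10.38 and 10.23 with microglial apoE, against 10.10, 10.14 and 10.22 with astrocytic apoE. It was higher by 0.14 ± 0.037 (limma adjusted p = 0.0058), with microglial replicate 3 only just above astrocytic replicate 3. Per kb, Eif4a1 exceeded Eif4a2 by 0.47 ± 0.022 log2 units with microglial apoE and 0.48 ± 0.068 with astrocytic apoE (SD, n = 3 each).

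The helicase cofactors moved in opposite directions. Eif4h was higher by 0.12 ± 0.027 (limma adjusted p = 0.0017) and kept its call under all 14 alternative settings. Eif4b (chr15:102073773-102097173) had 11.98, 11.94 and 11.95 with microglial apoE, against 12.02, 12.03 and 12.03 with astrocytic apoE. The groups were separate, but the difference of -0.070 ± 0.026 (limma adjusted p = 0.048) was lost under 8 of 14 alternatives, among them the removal of any library except astrocytic replicate 3 (adjusted p 0.077 to 0.14). Eif4e2 (0.057), Eif4g3 (0.034), Eif4g2 (-0.025), a scaffold that lacks the eIF4E-binding site, and Eif4e3 (-0.042) were not called.

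Among the proteins that hold eIF4E away from the scaffold, Eif4ebp1 was the factor gene with the largest difference. Eif4ebp1 (chr8:27260329-27276674) encodes the 4E-BP released from eIF4E when mTOR phosphorylates it. It had 11.68, 11.75 and 11.74 with microglial apoE, against 11.32, 11.36 and 11.37 with astrocytic apoE. The spread within each group was small beside the gap between them (SD 0.038 with microglial and 0.023 with astrocytic apoE), and the difference was 0.37 ± 0.028 (1.29-fold, limma adjusted p = 1.3e-10). Eif4ebp2, the form best known in brain, had 9.73, 9.65 and 9.66 with microglial apoE, against 9.71, 9.67 and 9.66 with astrocytic apoE. Its groups overlapped and its difference was 0.00037 ± 0.030 (limma adjusted p = 0.995).

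Per kb, Eif4ebp1 exceeded Eif4ebp2 by 3.44 ± 0.080 log2 units with microglial apoE and by 3.07 ± 0.049 with astrocytic apoE (SD, n = 3 each). Set against its target Eif4e, Eif4ebp1 was higher per kb by 1.37 ± 0.036 with microglial apoE and 1.00 ± 0.048 with astrocytic apoE. These differences of logs describe mRNA and not the amounts of the proteins. Eif4enif1, which carries eIF4E into the nucleus, had a difference of 0.041 and was not called.

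The eEF1 complex had 4 of 6 genes higher and none lower, with a median of 0.087. Eef1a1 (chr9:78478449-78489151) had 16.21, 16.23 and 16.23 with microglial apoE, against 16.09, 16.13 and 16.15 with astrocytic apoE. All microglial libraries were above all astrocytic ones, by 0.098 ± 0.024 (1.07-fold, limma adjusted p = 0.0041), and only the removal of astrocytic replicate 1, among the 14 alternatives, took the call away (0.081, adjusted p = 0.059). Eef1a1 is matched by 8 other genes at 95% identity or more. Eef1a2, the isoform that replaces it in mature neurons and muscle, had 11.62, 11.70 and 11.65 with microglial apoE, against 11.64, 11.67 and 11.74 with astrocytic apoE. Its groups overlapped, with a difference of -0.026 ± 0.030 (limma adjusted p = 0.57). Per kb, Eef1a1 exceeded Eef1a2 by 4.31 ± 0.030 log2 units with microglial apoE and by 4.18 ± 0.029 with astrocytic apoE (SD, n = 3 each).

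All 3 genes of eEF1B, the exchange factor that reloads eEF1A with GTP, were higher. Eef1g (chr19:8967041-8978479), its structural gamma subunit, had 13.05, 13.11 and 13.03 with microglial apoE, against 12.81, 12.84 and 12.95 with astrocytic apoE. The groups were separate, with a difference of 0.20 ± 0.032 (1.15-fold, limma adjusted p = 8.2e-05). The catalytic subunits Eef1d and Eef1b2 were higher by 0.090 ± 0.030 and 0.084 ± 0.027 (limma adjusted p = 0.027 and 0.026). Those calls were lost under 5 and 6 of the 14 alternatives (adjusted p up to 0.18 and 0.16). Both lost it with median centring (adjusted p = 0.067 each), and Eef1b2 also with a replicate block (0.053). The other losses came without astrocytic replicate 1 or 2 and without microglial replicate 2 for both, without microglial replicate 1 for Eef1d and without microglial replicate 3 for Eef1b2. Eef1d overlaps Naprt, and Eef1b2 overlaps Ndufs1. Eef1e1, a component of the multi-tRNA synthetase complex, had 0.025 and was not called.

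Neither Eef2 nor its inhibitory kinase was called. Eef2 had 14.93, 14.96 and 14.91 with microglial apoE, against 14.82, 14.86 and 14.94 with astrocytic apoE. Astrocytic replicate 3 lay among the microglial libraries, and the difference was 0.063 ± 0.028 (limma adjusted p = 0.11), or 0.097 with adjusted p = 0.0035 without that replicate. Eef2k, the kinase that halts eEF2, had 10.58, 10.52 and 10.54 with microglial apoE, against 10.49, 10.51 and 10.51 with astrocytic apoE. Its groups did not overlap, yet the difference of 0.046 ± 0.028 was not called (limma adjusted p = 0.24). Eef2kmt, a methyltransferase of eEF2, had 0.055 and was not called.

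The eIF5A genes encode the only known hypusine-bearing proteins, which relieve ribosomes stalled on difficult peptide bonds, and 1 of the 2 was called. Eif5a2 (chr3:28781276-28798846) had 9.99, 9.96 and 10.04 with microglial apoE, against 10.17, 10.09 and 10.14 with astrocytic apoE. It was lower in every microglial library than in any astrocytic one, by -0.13 ± 0.031 (0.911-fold, limma adjusted p = 0.0021), and was the lower call that held under all 14 alternatives. Eif5a, the widely expressed form, had 13.15, 13.25 and 13.15 with microglial apoE, against 13.15, 13.14 and 13.12 with astrocytic apoE. Its groups overlapped, with a difference of 0.048 ± 0.029 (limma adjusted p = 0.24). Per kb, Eif5a exceeded Eif5a2 by 4.27 ± 0.096 log2 units with microglial apoE and by 4.08 ± 0.039 with astrocytic apoE (SD, n = 3 each). Eif1a and Eif1ax, the remaining pair, differed (Eif1a minus Eif1ax) by -1.07 ± 0.019 per kb with microglial apoE and -1.05 ± 0.023 with astrocytic apoE. The SDs of such pairs cover the libraries only, and the size of a gap also depends on the lengths used. Merged exons of Eif1a and Eif1ax have 4168 and 5266 bases, and their longest coding transcripts 2865 and 5172.

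**Figure D4:**
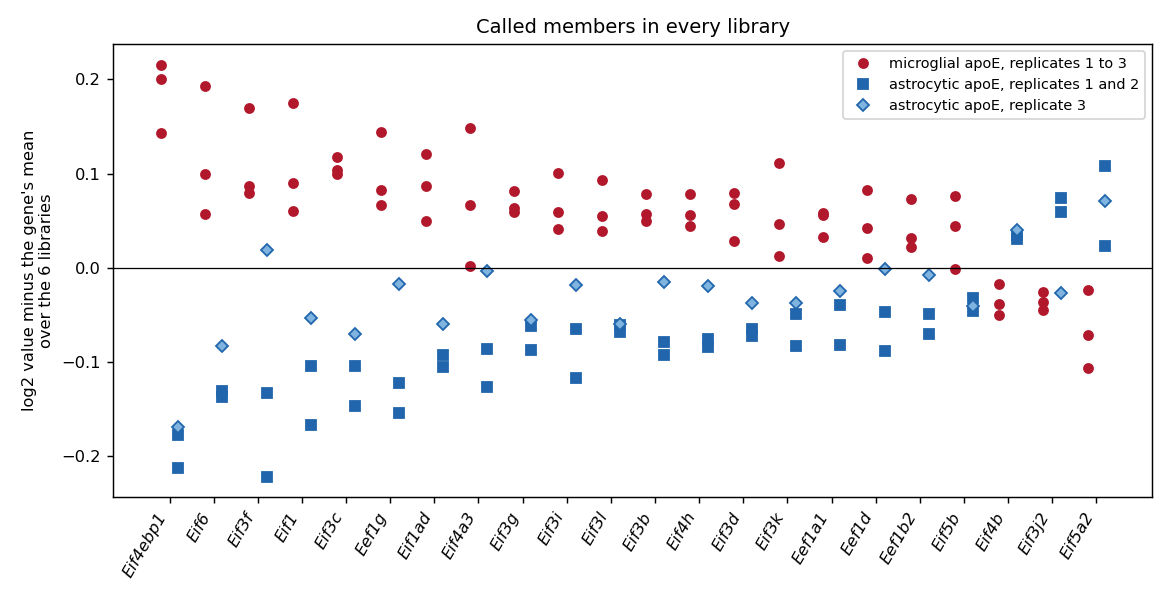
Value of each of the 22 called translation factor genes (x axis, ordered by fold change) in each library, as the log2 value minus the gene's mean over the 6 libraries (y axis); circles are microglial apoE, squares astrocytic replicates 1 and 2, diamonds astrocytic replicate 3. In 18 of the 19 higher genes the diamond is the highest astrocytic point.

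Most of the higher genes shared a pattern across the astrocytic libraries. Astrocytic replicate 3 was the highest of its group in 18 of the 19 higher genes (94.7%), Eif5b being the exception, against 60.9% of all genes called higher and 40.5% of all genes tested. In the 35 uncalled factor genes it was the lowest astrocytic library in 22 (62.9%), against 36.4% of all uncalled genes and 35.7% of all genes tested. Of the 3 lower genes, it was the highest astrocytic library in Eif4b, the lowest in Eif3j2 and neither in Eif5a2. The median of the 19 higher genes, relative to each gene's mean, was 0.059, 0.10 and 0.049 in the microglial libraries and -0.083, -0.088 and -0.037 in the astrocytic ones. Mitochondrially encoded genes took 5.71% to 5.77% of the summed unlogged values in the microglial libraries and 7.92%, 7.47% and 6.46% in astrocytic replicates 1, 2 and 3, and their part in these differences was not tested. Without astrocytic replicate 3, 21 factor genes were higher and 7 lower, and among all genes 2374 were higher and 2167 lower.

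The called genes also differed in composition, which the choice of genes did not use. The 19 higher genes had a median GC content of 50.1% and a median merged exon length of 2792 bases, the 3 lower genes 40.1% and 4468 bases, and the 35 uncalled genes 46.8% and 5266 bases. All genes tested had medians of 49.6% and 4348 bases, so the GC content of the 19 higher genes was near that of all genes. Over all genes the median GC content was 51.6% for those called higher, 47.6% for those called lower and 49.5% for those not called. Across the 57 genes, the Spearman rho of the log2 fold change with GC content was 0.45, and across 14553 tested genes with an annotation it was 0.20. With exon length rho was -0.24 across the 57 genes and -0.0094 across all. These correlations are across genes that share the same 6 libraries and are given as a description. When a trend over length and GC content was removed from each library, an alternative added after the data were seen, 20 factor genes were higher and 2 lower.

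The eIF2 kinases and the regulators of eIF2 dephosphorylation, which are not factor genes themselves, had 4 of 13 genes higher and 2 lower. Counts for this list and those below stand beside 13% higher and 11.8% lower over all genes tested. Eif2ak2 (PKR), the kinase that senses double-stranded RNA, had 9.55, 9.45 and 9.52 with microglial apoE, against 8.61, 8.65 and 8.58 with astrocytic apoE. The difference was 0.89 ± 0.032 (1.85-fold, limma adjusted p = 3.5e-17), which exceeded that of every factor gene. The other kinases were not called: Eif2ak1 (-0.018), Eif2ak3 or PERK (0.053) and Eif2ak4 or GCN2 (-0.038). Ppp1r15a (GADD34), the stress-induced subunit that directs phosphatase to eIF2, was higher by 0.21 ± 0.027 (limma adjusted p = 1.4e-06), and Impact, an inhibitor of GCN2 abundant in neurons, by 0.18 ± 0.027 (limma adjusted p = 1.3e-05). Ppp1cb, a catalytic subunit of protein phosphatase 1, was lower by 0.086 ± 0.029 (limma adjusted p = 0.029).

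Among mTOR, S6 kinase and MNK genes 4 of 22 were higher and none was lower, with a median of 0.0068. The share higher was near that of all genes tested (13%, with 11.8% lower). They were Sesn2 (0.30) and Ddit4 (0.21), which restrain mTOR complex 1 under stress, Larp1 (0.16), which binds mRNAs with terminal pyrimidine runs, and Tsc2 (0.087), which also restrains mTOR. The limma adjusted p was 2.1e-09, 2.2e-05, 0.00021 and 0.048 in that order. Mtor itself had -0.011 (limma adjusted p = 0.83). Among poly(A)-binding and mRNA-specific regulators 3 of 23 were higher and 1 lower, a share higher about that of all genes tested (13%). The higher ones were Cpeb1 (0.33), which controls cytoplasmic polyadenylation, Pabpc4 (0.13), a poly(A)-binding protein, and Cyfip1 (0.080), a partner of the fragile X protein. The lower one was Msi2 (-0.12), an RNA-binding repressor.

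The genes for making hypusine on eIF5A and diphthamide on eEF2, listed with genes of polyamine synthesis and its control, had 6 of 14 higher and 2 lower. The polyamine genes Odc1 (0.20) and Srm (0.18) and the deoxyhypusine synthase Dhps (0.14) were among the higher ones, with limma adjusted p of 2.2e-06, 9.2e-05 and 0.0082. Dph2 (0.12) of the diphthamide pathway was higher as well. Termination and recycling factors had 4 of 11 higher and none lower, namely Etf1 (0.12), the release factor, Hbs1l (0.13) and Pelo (0.12), which rescue stalled ribosomes, and the GTPase Gtpbp1 (0.081). Mitochondrial translation factors had 1 of 11 higher, Tsfm (0.087), and none lower, with a median of -0.0098. That share higher was again near the 13% of all genes tested. Mtif3, a mitochondrial initiation factor, had -0.073 (limma adjusted p = 0.088, passing under 3 of the 14 alternatives), Tufm, the mitochondrial elongation factor of the EF-Tu family, 0.039 and Mtrf1l, a mitochondrial release factor, -0.029, none of them called. Of the genes named from these lists, Tsfm lost its call under 10 of the 14 alternatives, Tsc2 under 9, Cyfip1 and Gtpbp1 under 8, Ppp1cb under 6, Msi2 under 5, Pelo under 3, and Dhps and Dph2 under 2.

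The cultures held transcripts of several cell types, and marker genes moved with the comparison. The sum of unlogged values over 10 astrocyte markers was 62128 to 62692 with microglial apoE, against 73445 to 74618 with astrocytic apoE, with 8 of the 10 lower and 1 higher. The sum over 8 genes of dividing cells was 1475 to 1500 with microglial apoE, against 2328 to 2406 with astrocytic apoE, and all 8 were lower. The sum over 12 neuronal markers was 76996 to 77516 with microglial apoE, against 78760 to 79666 with astrocytic apoE, with 4 lower and 1 higher. Over 12 microglial markers the sum was 632 to 633 with microglial apoE, against 600 to 618 with astrocytic apoE, with 1 of 9 tested higher. Oligodendrocyte lineage markers had 1 higher and 2 lower of 8, fibroblast or mural markers 3 higher and none lower of 6, endothelial markers were all below the minimum, and no marker was listed at 0. In these bulk samples fewer cells of a type and less RNA per cell cannot be told apart, and the part of cell composition in the factor gene differences was not tested.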

How the data were processed

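Each library came as a table of gene symbols with a log2 value, as deposited by the authors. FastQC, HISAT2, featureCounts and DESeq2 with the build GRCm38 are named in the submitters' processing notes, without roles. Tool versions, annotation and strand handling were not given in the sources used here. That the log2 values are a regularized logarithm was inferred from them: 21031 symbols are at exactly 0 in all libraries and none in only some. Genes at about the log2 of 10 or more in at least 3 of 6 libraries were tested with limma 3.58.1 (R 4.3.3, trend and robust options) on the deposited values, microglial minus astrocytic apoE, two-sided, with Benjamini-Hochberg adjustment over all genes tested and a threshold of 0.05. A simulation with known differences, 50 genes at each size, gave the sensitivity of this test. It recovered 10 of 50 genes at a log2 difference of 0.1 (20%) and 42 of 50 at 0.2 (84%). All 50 were recovered at 0.5 and at 1, with 3 false calls. The members and gene lists were chosen with earlier results of these data known.

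Values in every library are given for the 8 called genes with the highest fold changes and for the lower genes whose groups did not overlap (Eif5a2 and Eif4b). They are also given for 22 factor genes whatever their values. Of the other lists, up to 4 genes with the smallest p are named, with the eIF2 kinases; Mtor was named after its value was seen. Coordinates, lengths and overlaps are from GENCODE M21 (GRCm38), 1-based (bedtools 2.31.1). Near-identical genes were found with blastn 2.17.0 over at least 300 bases. Such genes, found for 18 members, and overlaps with another expressed gene, found for 13, leave the counts uncertain. Promoters of 12 members were not analysed here. Tables were made in Python 3.11.15 with pandas 2.3.3.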

Additional observations from a re-analysis of the deposited data

How the results depend on the processing

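In 14 alternative settings, 15 of the 22 called factor genes kept their call in all (14 higher, Eif5a2 lower). Calls were lost for Eef1a1 in 1 setting, Eef1d in 5, Eef1b2 and Eif3f in 6, and Eif5b, Eif3j2 and Eif4b in 8, and 11 uncalled genes passed in at least 1. The number called lower was 5 with median centring, 1 with equal sums and 1 to 7 with a library left out, 7 being without astrocytic replicate 3. All genes called lower were 2767 with median centring. Equal sums without mitochondrially encoded genes gave 18 higher and 4 lower, no filter 17 and 2, a filter at the log2 of 50 gave 20 and 3, and limma without trend and robust options 21 and 2. With a library left out, 15 to 21 were higher. The values gave no clear sign that the replicate numbers pair the samples, though 3 libraries per group cannot settle it. Deviations of same-numbered libraries correlated at 0.039, -0.12 and -0.19. A fit with the number as a replicate block gave 17 higher and 2 lower. Microglial replicates 1, 2 and 3 correlated best with astrocytic replicates 1, 3 and 2.

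Reversals touched only genes that were not called. With median centring Eif4e was at -0.016, Eif4ebp2 at -0.018, Eif3h at -0.014, Eif4a2 at -0.016 and Kdm6a at -0.014. With equal sums Eif1b was at 0.0064 and Eif4a1 at 0.011. With equal sums without mitochondrially encoded genes Eif4e was at -0.0082, Eif4ebp2 at -0.0099, Eif3h at -0.0063, Eif4a2 at -0.0078 and Kdm6a at -0.0055. With the length and GC trend removed, Eif2a was at 0.0074, Eif4ebp2 at -0.012, Eif3h at -0.0022 and Xist at 0.013. With a library left out, values spanned -0.048 to 0.0020 for Eef1a2, -0.018 to 0.052 for Eef1e1, -0.032 to 0.018 for Eif1b, -0.062 to 0.0098 for Eif2a, -0.041 to 0.011 for Eif2ak1, -0.070 to 0.011 for Eif2ak4, -0.014 to 0.042 for Eif2s1, -0.0069 to 0.014 for Eif3h, -0.024 to 0.0092 for Eif4a1, -0.047 to 0.036 for Eif4a2, -0.017 to 0.017 for Eif4e, -0.024 to 0.015 for Eif4ebp2, -0.015 to 0.018 for Kdm6a and -0.075 to 0.027 for Xist. The cause was not tested. Depth is unknown, so its limit on weak genes cannot be given.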
